A study of Mus musculus with 69 samples.

Results

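The PIM kinases are the 3 serine/threonine kinases encoded by Pim1, Pim2 and Pim3, and their transcripts were followed here through every T cell culture of a study on STAT5 dose. The 3 members were taken by their gene symbols, out of 24309 genes in each of the CD8+ and CD4+ tables and 24311 in the table of retrovirus-transduced cells. All 3 passed the filter on low counts in all 40 fits reported below, and their lowest count in any library was 162.

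PIM kinases lack the regulatory step that most kinases of their kind need: the protein folds in an active form, so that its activity depends on its amount. The transcript levels given here do not measure the amount of protein or its activity. Cytokines that signal through JAK kinases and STAT5, IL-7 and IL-15 among them, are known inducers of Pim1 and Pim2 in lymphocytes, where the proteins act in survival, growth and cap-dependent translation alongside AKT and mTOR. Pim1 and Pim2 are best known from lymphoid cells, and Pim3 is the least studied of them in T cells.

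Poly(A) RNA was sequenced from T cells sorted from pooled lymph nodes and spleens of adult mice of 3 genotypes. WT mice were Stat5a+/+ Stat5b+/+, AAB mice were Stat5a-/- Stat5b+/- and so kept 1 Stat5b allele, and BBA mice were Stat5a+/- Stat5b-/- and so kept 1 Stat5a allele. The deletions are germline, so that the cells also developed with fewer STAT5 alleles. Naive cells (Tnv, CD44 low and CD62L high), central memory cells (Tcm, CD44 high and CD62L high) and effector memory cells (Tem, CD44 high and CD62L low) were taken from the CD8+ lineage and naive cells from the CD4+ lineage. Cells were cultured overnight with IL-7 or with IL-15. The cells without cytokine are described as cultured in the labels and as used directly ex vivo in the methods of the study, so a response given here as cytokine over no cytokine may also hold the effect of culture, and the 2 cannot be told apart. CD8+ Tem were not given IL-7 and CD4+ cells were not given IL-15. Groups held 2 libraries each in the CD8+ table (48 libraries in 24 groups) and 2 or 3 in the CD4+ table (15 libraries in 6 groups). In 4 further libraries, AAB cells labelled as CD8+ T cells activated in vitro carried a retrovirus with CA-STAT5A, a constitutively active STAT5A, or the empty vector MigR1. The methods of the study speak of separate mice within a group, but the labels do not tie libraries to mice, and every p-value below measures only the spread between these libraries.

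Library totals ran from 5926139 to 25612758 counts in the CD8+ table, from 6705004 to 34118295 in the CD4+ table and from 11020965 to 16516525 in the retrovirus table. Sort markers followed the labels in the T cell tables: Cd8a lay between 697 and 2027 CPM (a gene's share of its library's counts, in parts of 1e6 after TMM scaling) in the CD8+ libraries and at most at 8.74 CPM in the CD4+ ones. Cd44 lay between 1.96 and 42.4 CPM in CD8+ Tnv and between 59.6 and 267 CPM in Tcm and Tem. One CD8+ WT Tnv library with IL-15, replicate 2, held Cd4 at 237 CPM against 6.52 CPM in replicate 1. One WT Tcm library with IL-7, replicate 1, held Fos at 66.3 CPM and Junb at 490 CPM against 2.22 and 106 CPM in replicate 2. By Xist and Ddx3y, all CD8+ libraries without cytokine and with IL-15 were from females and all Tnv libraries with IL-7 from males, and the CD4+ libraries were all male. In CD8+ Tnv, sex and IL-7 therefore cannot be told apart, against no cytokine or against IL-15. In Tcm with IL-7 both WT libraries were male, and in AAB and BBA replicate 1 was female and replicate 2 male, so that a sex term could be fitted for the mutants. Pim2 is X-linked. In bulk RNA, fewer cells of a type and less RNA per cell cannot be told apart either.

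In the GENCODE M21 annotation of GRCm38, Pim1 lies on the plus strand at chr17:29490753-29496112 with 3362 bases of merged exons, Pim2 on the plus strand at chrX:7878262-7883432 with 2795, and Pim3 on the plus strand at chr15:88862186-88865726 with 2427. The start of Pim1 overlaps the antisense gene Gm26885, and since the sources do not say that counting used the strand, reads of the 2 genes in the overlap cannot be told apart. The 150 bases just upstream of each start, from RefSeq on GRCm38.p6, show how differently the 3 promoters are built, and the capitals are absent because none of the motifs below lies in them.
Pim1, chr17:29490603-29490752: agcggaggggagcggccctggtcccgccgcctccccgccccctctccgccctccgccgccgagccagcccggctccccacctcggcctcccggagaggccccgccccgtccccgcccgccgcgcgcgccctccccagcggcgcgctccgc
Pim2, chrX:7878112-7878261: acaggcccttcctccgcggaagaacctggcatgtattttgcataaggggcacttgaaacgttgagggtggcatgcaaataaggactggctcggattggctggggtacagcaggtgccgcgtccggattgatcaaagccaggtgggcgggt
Pim3, chr15:88862036-88862185: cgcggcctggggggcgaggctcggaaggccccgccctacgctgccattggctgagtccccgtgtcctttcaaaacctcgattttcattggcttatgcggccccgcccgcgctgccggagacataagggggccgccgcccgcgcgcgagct
GC content was 86% upstream of Pim1 with 24 CpG dinucleotides, 57.3% upstream of Pim2 with 8, and 70% upstream of Pim3 with 19. Searched on both strands, the STAT motifs TTCNNNGAA and the same with 1 more N in its gap, held by 8.3% and 6.95% of 32851 promoter windows of the mouse, had 0 matches in the 4 windows of the PIM genes, which run from 250 bases before to 50 after a start. The E-box CACGTG, which reads the same on both strands and is held by 7.15% of all windows, was found once, 58 bases upstream of a second, inner Pim1 start, at chr17:29493027-29493032 in the sequence acaggaatCACGTGgtctgaaa (motif in capitals).

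Pim1 and Pim2 carried nearly all of the PIM transcript in cytokine, and Pim3 held a sizeable share only without it. Levels per kilobase of exon were summed over the 3 genes to compare them with each other. In CD8+ WT Tnv without cytokine the sum was 113 ± 17.3 CPM per kb (SD, n = 2), of which Pim1 made up 29.0% ± 5.23, Pim2 48.8% ± 7.86 and Pim3 22.1% ± 2.64. In the same cells the sum was 208 ± 17.1 after IL-7 and 261 ± 60.6 after IL-15. In WT Tcm it went from 121 ± 13.2 without cytokine to 293 ± 36.4 with IL-15, where Pim2 held 59.1% ± 0.601, Pim1 35.1% ± 0.658 and Pim3 5.88%. CD4+ WT Tnv had the lowest sum without cytokine among the WT groups, 72.5 ± 10.8 (n = 3), and 225 ± 10.6 with IL-7, and there Pim1 was the main form at 64.3% ± 1.11. Over all groups, Pim3 held 17.6% to 25.8% of the sum without cytokine and 4.54% to 9.16% with IL-7 or IL-15.

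**Figure D1:**
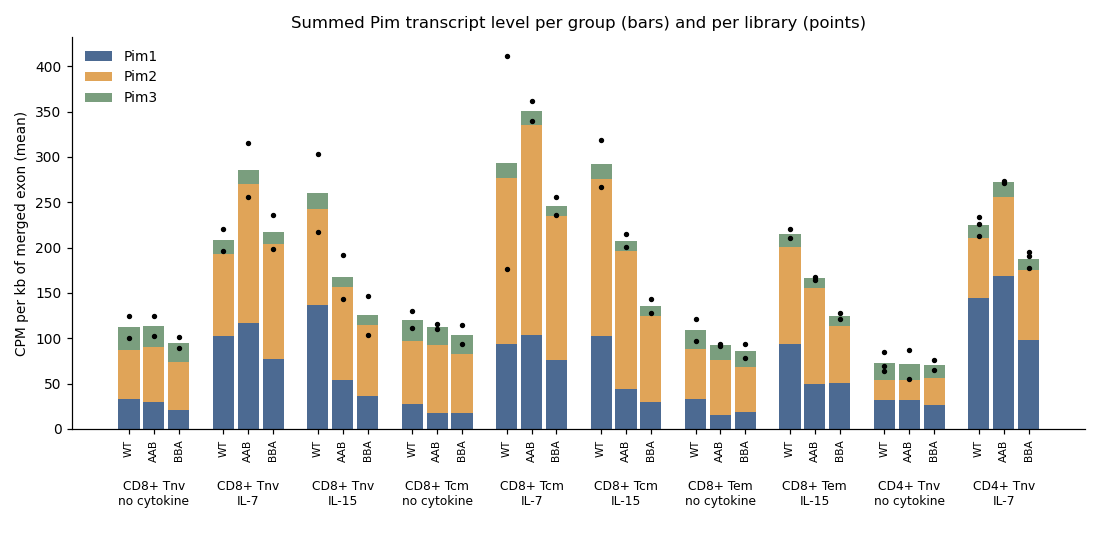
Summed PIM transcript level in CPM per kilobase of merged exon (y axis from 0) for each group (x axis), with the bars split into Pim1, Pim2 and Pim3 means and points for each library's sum. The WT sum lies at 72.5 to 121 without cytokine and at 208 to 294 with cytokine, and Pim3 is the thinnest layer in every cultured group.

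The mean sum stood in the order WT, AAB, BBA in each CD8+ state with IL-15. In Tcm with IL-15 it was 293 ± 36.4 in WT, 208 ± 10.4 in AAB and 135 ± 10.6 in BBA, and the ranges of the 3 genotypes did not overlap. In Tem with IL-15 the order was the same, at 215 ± 6.85, 166 ± 2.29 and 125 ± 4.47 (n = 2 each). Tnv with IL-15 had means of 261 ± 60.6, 168 ± 34.45 and 125 ± 29.8 (n = 2 each). There the AAB libraries, at 143 and 192, overlapped with the BBA libraries, at 104 and 146. In Tnv with IL-7 the AAB group was the highest instead, at 286 ± 42.1 against 208 ± 17.1 in WT and 217 ± 26.6 in BBA, and in CD4+ Tnv with IL-7 AAB stood at 273 ± 1.92, WT at 225 ± 10.6 and BBA at 188 ± 9.03. No test was made on the sum.

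**Figure D2:**
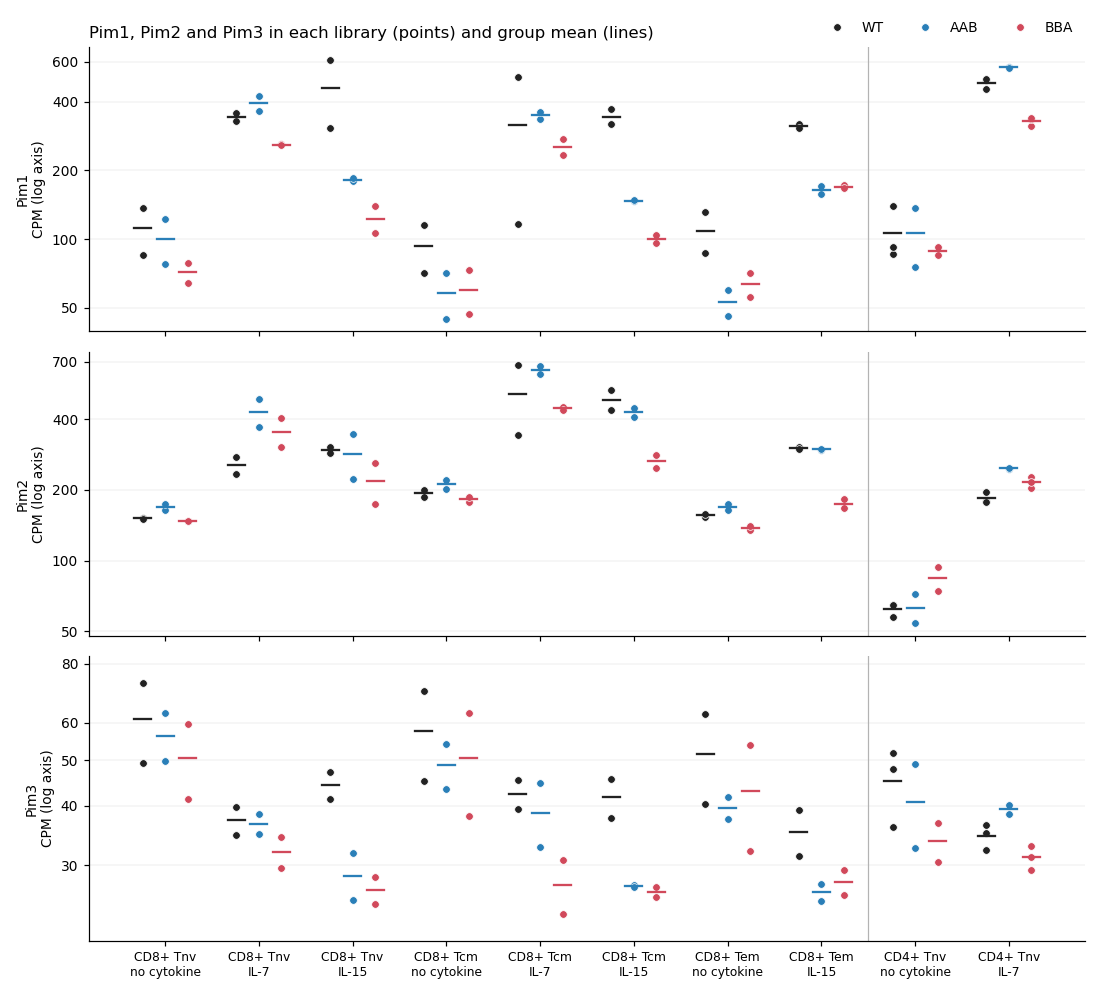
Pim1, Pim2 and Pim3 levels in CPM (log y axes) in each library (points) with group means (short lines), by lineage, state and culture (x axis) and genotype (colour). Pim1 lies between 44.8 and 140.4 CPM without cytokine and reaches 609 CPM with it, Pim2 reaches 679 CPM, and Pim3 stays between 23.6 and 72.7 CPM throughout.

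IL-7 raised Pim1 and Pim2 in naive cells of all 3 genotypes. CD8+ WT Tnv held Pim1 at 85.5 and 137 CPM without cytokine and at 330.4 and 356 CPM with IL-7. Pim2 stood at 153 and 151 CPM without and at 234 and 275 CPM with IL-7. The libraries with IL-7 were above those without for both genes, 3.03-fold for Pim1 (log2 1.6, SE 0.35, adjusted p = 0.014, quasi-likelihood F test of edgeR, adjusted by Benjamini-Hochberg over all genes tested) and 1.65-fold for Pim2 (log2 0.73, adjusted p = 0.0024). A gene was called where the fold was over 1.5 and the adjusted p under 0.05, and 9.87% of the genes tested were called higher in that comparison. Both genes rose in AAB Tnv too: Pim1 went from 78.1 and 123 CPM to 423 and 365 CPM (log2 1.95, adjusted p = 0.0051) and Pim2 from 165 and 174 CPM to 486 and 372 CPM (log2 1.32, adjusted p = 0.019), where 4.45% of genes were called higher. In BBA Tnv, Pim1 went from 64.5 and 78.7 CPM to 260.3 and 257 CPM (log2 1.82, adjusted p = 0.00079) and Pim2 from 148 and 148 CPM to 403 and 305 CPM (log2 1.23, adjusted p = 0.013), where 3.45% of genes were called higher. In all 3 genotypes the IL-7 libraries were male and those without cytokine female, so these CD8+ differences cannot be told apart from one between the sexes.

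Pim1 and Pim2 rose in CD4+ Tnv with IL-7 as well. In WT, Pim1 went from 86.5, 140.4 and 92.2 CPM to 456, 499 and 501 CPM, which is 4.57-fold (log2 2.19, SE 0.17, adjusted p = 3.3e-05). Pim2 went from 64.5, 64.6 and 57.5 CPM to 179.6, 178 and 196 CPM, which is 2.97-fold (log2 1.57, adjusted p = 3.4e-06). Both genes were clear of their no-cytokine range, and 9.32% of genes were called higher. In AAB, Pim1 rose from 75.8 and 137 CPM to 569 and 561 CPM (5.32-fold, adjusted p = 0.0053) and Pim2 from 54.3 and 72.0 CPM to 246 and 247 CPM (3.9-fold, adjusted p = 0.0021), where 5.93% of genes were called higher. In BBA, Pim1 rose from 85 and 92.8 CPM to 313, 337 and 339 CPM (3.71-fold, adjusted p = 0.00013) and Pim2 from 74.5 and 93.7 CPM to 203, 226 and 217 CPM (2.56-fold, adjusted p = 0.0010), where 7.12% of genes were called higher. These 6 calls were kept whichever library was left out.

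In Tcm with IL-7, AAB and BBA cells gave calls for both genes and WT cells did not. AAB Pim1 went from 44.8 and 71.4 CPM to 335 and 362 CPM, the widest step of either gene in the CD8+ table at 6.06-fold (log2 2.60, adjusted p = 0.00086), and Pim2 from 221 and 201 CPM to 620.2 and 674 CPM (3.09-fold, adjusted p = 0.00034), where 4.62% of genes were called higher. BBA Pim1 went from 47.2 and 73.2 CPM to 275 and 233 CPM (4.3-fold, adjusted p = 0.0016) and Pim2 from 177 and 187 CPM to 451 and 437 CPM (2.48-fold, adjusted p = 0.00093), where 4.6% were called higher. Replicate 1 with IL-7 was female in both mutants, as were all libraries without cytokine, and with a sex term these 4 calls remained (adjusted p 0.0056 to 0.017). WT Tcm with IL-7 were the 2 libraries that differed most from each other, with Pim1 at 117 and 513 CPM and Pim2 at 343 and 679 CPM over 70.9 and 115 CPM and 199.8 and 187 CPM without cytokine. The differences there were log2 1.73 (SE 0.62, adjusted p = 0.34) for Pim1 and 1.38 (adjusted p = 0.17) for Pim2, with 0.195% of genes called higher. Without WT replicate 1, the library with Fos at 66.3 CPM, they were 2.43 and 1.79, from 1 IL-7 library. The WT libraries with IL-7 were male and those without cytokine female, so sex and IL-7 cannot be told apart here.

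With IL-15, Pim1 was called higher in 8 of 9 sets of CD8+ libraries and Pim2 in 4 of 9. The log2 difference from no cytokine was above 0 in every set for both genes. With the replicate number as a block, Pim1 lost its call in AAB Tnv (adjusted p = 0.070) and BBA Tcm (adjusted p = 0.056). WT Tnv held Pim1 at 307 and 609 CPM with IL-15 (4.17-fold over no cytokine, log2 2.06, adjusted p = 0.018) and Pim2 at 305 and 287 CPM (1.98-fold, adjusted p = 0.0036), where 3.37% of genes were called higher. The replicate at 609 CPM is the one that held Cd4 at 237 CPM, and the part of that in the Pim1 level was not tested. AAB Tnv with IL-15 held Pim1 at 179 and 185 CPM (1.85-fold, adjusted p = 0.040, 6.36% of genes called higher), and BBA Tnv at 106 and 139 CPM (1.76-fold, adjusted p = 0.012, 10.7% called higher). Pim2 in these 2 genotypes, at 223 and 347 CPM in AAB and 174 and 260.2 CPM in BBA, was not called (log2 0.78, adjusted p = 0.070 and 0.60, adjusted p = 0.084).

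Memory cells were given IL-15 too. AAB Tcm held Pim1 at 146 and 149 CPM (2.6-fold over no cytokine, adjusted p = 0.015) and Pim2 at 407 and 447 CPM (2.07-fold, adjusted p = 0.0039), where 1.3% of genes were called higher. BBA Tcm held Pim1 at 96.0 and 105 CPM (1.72-fold, adjusted p = 0.046, 4.13% of genes called higher), and Pim2 at 248 and 281 CPM, whose difference was under the fold limit (log2 0.58, adjusted p = 0.017). WT Tcm, at 319 and 370.3 CPM of Pim1 and 437 and 529 CPM of Pim2, did not overlap with their no-cytokine libraries (log2 1.88, SE 0.63, adjusted p = 0.33 and log2 1.33, adjusted p = 0.22) but no gene at all was called there (0% higher). The unadjusted p was under 0.05 for 1311 genes in that comparison, and DESeq2 called 185 genes higher and 152 lower. The fit shares its spread with the 2 unlike IL-7 libraries. Without WT Tcm IL-7 replicate 1, the same IL-15 differences had adjusted p = 0.0066 for Pim1 and 0.0054 for Pim2.

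In Tem, Pim1 rose with IL-15 in all 3 genotypes. WT Tem went from 86.8 and 131 CPM to 319 and 307 CPM (2.9-fold, adjusted p = 0.037), AAB from 46.2 and 59.7 CPM to 158 and 172 CPM (3.15-fold, adjusted p = 0.020) and BBA from 56.0 and 70.9 CPM to 173 and 167 CPM (2.69-fold, adjusted p = 0.043). Few genes were called higher in these comparisons, 0.61% in WT, 0.292% in AAB and 0.0991% in BBA. Pim2 rose in WT Tem from 153 and 158 CPM to 305 and 297 CPM (1.96-fold, adjusted p = 0.021) and in AAB from 174 and 164 CPM to 297 and 297 CPM (1.77-fold, adjusted p = 0.047). In BBA it stood at 135 and 140.3 CPM without and 183 and 167 CPM with IL-15 (log2 0.35, adjusted p = 0.21).

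**Figure D3:**
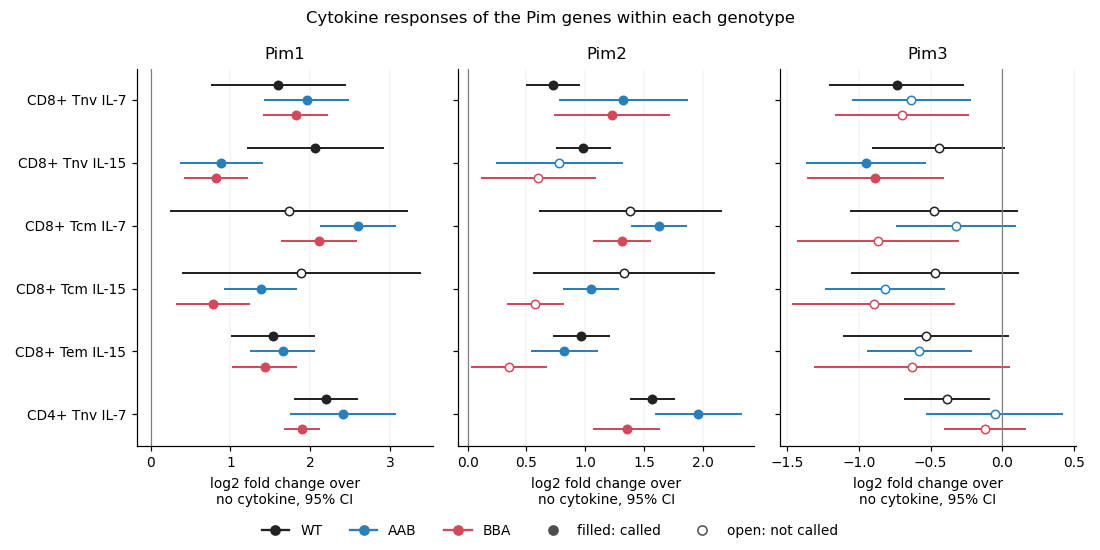
Log2 fold change over no cytokine with its 95% confidence interval (x axis) for each cytokine, lineage and state (y axis) in WT, AAB and BBA, one panel per gene, with filled points for calls. Pim1 and Pim2 lie above 0 in every comparison and Pim3 below 0 in every comparison.

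Pim3 moved the other way. Its log2 difference from no cytokine was below 0 in all 18 comparisons, between -0.95 and -0.05, and 3 were called. In WT Tnv it fell from 49.4 and 72.7 CPM to 34.8 and 39.8 CPM with IL-7 (log2 -0.74, SE 0.19, adjusted p = 0.027), where 10.4% of genes were called lower. With IL-15 it fell in AAB Tnv from 49.9 and 62.8 CPM to 25.3 and 31.8 CPM (log2 -0.95, adjusted p = 0.017, 4.1% of genes called lower) and in BBA Tnv from 41.3 and 59.7 CPM to 24.8 and 28.4 CPM (log2 -0.89, adjusted p = 0.019, 6.06% called lower). WT Tnv with IL-15 kept Pim3 at 41.5 and 47.1 CPM (log2 -0.44, adjusted p = 0.18). The libraries without cytokine also held the immediate early genes at summed levels of 1124 to 4985 CPM in the CD8+ table, over 8 genes, against 202 to 910 CPM with cytokine. Within each CD8+ group without cytokine, replicate 2 was above replicate 1 for Fos, Pim1 and Pim3 alike. The part of this in the Pim1 and Pim3 levels was not tested.

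More of the IL-7 calls than of the IL-15 calls were kept when libraries were left out. The 2 sets of cells differ, since CD4+ Tnv were given only IL-7 and Tem, with 4 libraries per fit, only IL-15. The part of this in the numbers kept was not tested. Of the 16 IL-7 calls of Pim1 and Pim2 in 18 comparisons, 13 were kept whichever library of the fit was left out, and the exceptions were in Tnv: WT Pim1 (adjusted p 0.065 to 0.085 without WT no-cytokine replicate 1 or either IL-7 library), AAB Pim2 (0.0996 and 0.12 without either no-cytokine library) and BBA Pim2 (0.063 and 0.065 without IL-7 replicate 1 or no-cytokine replicate 2). Of the 12 IL-15 calls in 18 comparisons, only Pim2 in AAB Tcm was kept whichever library was left out. The other 11 each lost the call without 1 or more of their libraries. In Tnv, the adjusted p reached 0.12 for Pim1 in WT without no-cytokine replicate 1, 0.051 for Pim2 in WT without no-cytokine replicate 2, 0.21 for Pim1 in AAB without no-cytokine replicate 1 and 0.11 for Pim1 in BBA without no-cytokine replicate 1. In Tcm it reached 0.079 for Pim1 in AAB and 0.20 for Pim1 in BBA, both without IL-15 replicate 2. In Tem it reached 0.094 for Pim1 and 0.13 for Pim2 in WT, 0.084 and 0.33 in AAB, and 0.22 for Pim1 in BBA, all without no-cytokine replicate 1. None of these differences changed sign. The 3 Pim3 calls were lost too, with adjusted p up to 0.15 in WT without IL-7 replicate 1, 0.14 in AAB without IL-15 replicate 1 and 0.20 in BBA without no-cytokine replicate 2.

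In the 2 mutant genotypes, Pim1 was lower in the libraries with IL-15 than in those with IL-7, in Tnv and in Tcm. In AAB Tnv, Pim1 stood at 179 and 185 CPM with IL-15 against 423 and 365 CPM with IL-7 (log2 -1.07, adjusted p = 0.028, with 3.17% of genes called lower). With the replicate number as a block this call was lost (log2 -1.07, adjusted p = 0.057). In BBA Tnv the levels were 106 and 139 CPM against 260.3 and 257 CPM (log2 -1.0, adjusted p = 0.0057, 2.76% called lower). In Tcm the differences were log2 -1.22 in AAB (adjusted p = 0.022, 0.939% called lower) and -1.33 in BBA (adjusted p = 0.029, 0.516% called lower). Pim2 was called lower with IL-15 in BBA Tcm alone, at 248 and 281 CPM against 451 and 437 CPM (log2 -0.74, adjusted p = 0.025). Its differences were -0.58 in AAB Tcm (adjusted p = 0.029, under the fold limit), -0.54 in AAB Tnv (adjusted p = 0.19) and -0.63 in BBA Tnv (adjusted p = 0.098). In WT the 2 cytokines overlapped for Pim1, with 307 and 609 CPM in IL-15 against 330.4 and 356 CPM in IL-7 in Tnv and 319 and 370.3 CPM against 117 and 513 CPM in Tcm. Of these 5 calls only Pim1 in BBA Tnv was kept whichever library was left out, and the others reached adjusted p 0.21 in AAB Tnv and 0.14 in AAB Tcm, both without IL-15 replicate 2, and 0.15 in BBA Tcm, for Pim1 without IL-7 replicate 1 and for Pim2 without IL-15 replicate 1. The Tnv comparison sets female IL-15 libraries against male IL-7 ones, and sex and cytokine cannot be told apart there. In the Tcm of the mutants, the female IL-7 library held Pim1 at 335 CPM in AAB and 275 CPM in BBA, against 146 and 149 CPM and 96.0 and 105 CPM in the female IL-15 libraries. With a sex term, chosen after seeing the data, the Tcm differences of Pim1 were log2 -1.18 in AAB (adjusted p = 0.0996) and -1.44 in BBA (adjusted p = 0.12) and that of Pim2 in BBA was -0.76 (adjusted p = 0.14), and none of these 3 was called.

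The question of STAT5 dose was asked by comparing genotypes within each culture, and Tcm with IL-15 gave the most calls of the PIM genes. Pim1 was at 319 and 370.3 CPM in WT, at 146 and 149 CPM in AAB and at 96.0 and 105 CPM in BBA, so that the 3 genotypes lay apart in that order. WT exceeded AAB 2.31-fold (log2 1.21, SE 0.10, adjusted p = 0.0038) and BBA 3.36-fold (log2 1.75, SE 0.10, adjusted p = 0.00011). AAB exceeded BBA by log2 0.54 (adjusted p = 0.024), under the fold limit. Pim2 was at 437 and 529 CPM in WT, 407 and 447 CPM in AAB and 248 and 281 CPM in BBA. WT and AAB overlapped (log2 0.16, adjusted p = 0.44), with a 95% interval of the difference from -0.12 to 0.44, and both were above BBA, by log2 0.84 (SE 0.12, adjusted p = 0.0021) and 0.68 (SE 0.12, adjusted p = 0.022). Pim3 was at 37.8 and 45.7 CPM in WT, 27.2 and 26.9 CPM in AAB and 25.7 and 27.0 CPM in BBA, 1.53-fold (adjusted p = 0.030) and 1.55-fold (adjusted p = 0.0065) higher in WT. The share of genes called higher was 2.8% in WT over AAB, where 2 of 3 PIM genes were called, 12.3% in WT over BBA, where 3 of 3 were called, and 3.12% in AAB over BBA, where 1 of 3 was.

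The Pim1 and Pim2 calls of WT over BBA and the Pim1 call of WT over AAB in these Tcm were kept whichever library was left out, though the last missed the threshold in a single fit over all CD8+ libraries (log2 1.22, adjusted p = 0.085). Pim2 in AAB over BBA was lost without any 1 of the AAB or BBA libraries (adjusted p 0.057 to 0.11), and Pim3 in WT over AAB without any 1 of the WT or AAB libraries (0.058 to 0.15). Pim3 in WT over BBA dropped under the fold limit without WT replicate 2 (log2 0.51). B cell markers summed over 5 genes stood at 92.5 and 173 CPM in WT, 69.2 and 192 CPM in AAB and 193 and 405 CPM in BBA Tcm with IL-15, with none at 0, and their part in the PIM differences was not tested. Myeloid markers summed to 9.24 and 7.12 CPM in WT, 9.06 and 23.9 CPM in AAB and 51.7 and 26.5 CPM in BBA, and their part was not tested either. NK cell markers summed to 254 to 283 CPM over all 6 of these libraries.

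Tnv with IL-15 showed the same order for Pim1. The levels were 307 and 609 CPM in WT, 179 and 185 CPM in AAB and 106 and 139 CPM in BBA, with no overlap between WT and either mutant. WT exceeded BBA 3.67-fold (log2 1.88, SE 0.31, adjusted p = 0.011), and 2.53% of genes were called higher. The difference from AAB, log2 1.33 (SE 0.31), missed the threshold at adjusted p = 0.094. Leaving out 1 library at a time, this difference ran from log2 0.75 to 1.72. The highest value had WT replicate 2, the library with its Cd4, as the 1 WT library. For Pim1 in WT over BBA the values ran from log2 1.31 to 2.29. Pim3 was at 41.5 and 47.1 CPM in WT against 25.3 and 31.8 CPM in AAB (log2 0.63, adjusted p = 0.13) and 24.8 and 28.4 CPM in BBA (log2 0.71, adjusted p = 0.040). Pim2 overlapped between WT and AAB, at 305 and 287 CPM in WT, 223 and 347 CPM in AAB and 174 and 260.2 CPM in BBA (log2 0.42 for WT over BBA, adjusted p = 0.39). The Pim1 call was lost without BBA replicate 1 (log2 1.70, adjusted p = 0.076). The Pim3 call was lost without any 1 library (adjusted p 0.063 to 0.16), WT replicate 2 with its Cd4 among them (log2 0.62, adjusted p = 0.15). NK cell markers summed to 59.3 and 49.6 CPM in WT, 81.6 and 98.5 CPM in AAB and 104 and 131 CPM in BBA. Myeloid markers summed to 6.6 and 10.4 CPM in WT, 9.65 and 35.4 CPM in AAB and 79.6 and 37.6 CPM in BBA, and B cell markers to 44.0 and 129, 65.7 and 143, and 100.1 and 207 CPM. The part of these in the PIM differences was not tested.

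In Tem with IL-15, Pim1 stood at 319 and 307 CPM in WT, 158 and 172 CPM in AAB and 173 and 167 CPM in BBA, with both mutants clear of WT and overlapping each other. WT exceeded BBA 1.8-fold (log2 0.84, SE 0.10, adjusted p = 0.030), with 1.22% of genes called higher. WT over AAB was log2 0.89 (SE 0.10) with adjusted p = 0.20, although the 2 groups lay as far apart, and with the replicate number as a block it was called (log2 0.89, adjusted p = 0.0076, with 0.658% of genes called higher in that fit). Pim2 was at 305 and 297 CPM in WT, 297 and 297 CPM in AAB and 183 and 167 CPM in BBA. WT exceeded BBA by log2 0.75 (SE 0.11, adjusted p = 0.042). AAB exceeded BBA by log2 0.77 with adjusted p = 0.29, and with the block this too was called (adjusted p = 0.013, 1.05% of genes called higher). Both Tem calls of WT over BBA were lost without any 1 library, at adjusted p 0.063 to 0.24 for Pim1 and 0.086 to 0.29 for Pim2. B cell markers summed to 39.8 and 110 CPM in WT, 40.9 and 159 CPM in AAB and 56.1 and 174 CPM in BBA Tem with IL-15. Myeloid markers summed to 6.87 and 26.5 CPM in WT, 12.0 and 57.3 CPM in AAB and 119 and 18.6 CPM in BBA. NK cell markers summed to 205 and 171, 240 and 257, and 273 and 176 CPM. The part of these in the PIM differences was not tested.

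With IL-7 the genotypes stood in another order, most clearly in CD4+ Tnv. These libraries were male and CD4+ cells had no IL-15, while the CD8+ libraries with IL-15 were female. Cytokine, lineage and sex therefore cannot be told apart in this contrast of orders. Pim1 was at 456, 499 and 501 CPM in WT, at 569 and 561 CPM in AAB and at 313, 337 and 339 CPM in BBA, and no library of 1 genotype lay within the range of another. AAB exceeded BBA 1.71-fold (log2 0.78, SE 0.07, adjusted p = 0.00090), with 0.882% of genes called higher. WT exceeded BBA by log2 0.55 (SE 0.07, adjusted p = 0.0011), under the fold limit, and lay below AAB by log2 -0.22 (adjusted p = 0.27). Pim2 was at 179.6, 178 and 196 CPM in WT, 246 and 247 CPM in AAB and 203, 226 and 217 CPM in BBA, so WT was the lowest of the 3. WT over AAB was log2 -0.42 (SE 0.07, adjusted p = 0.035) and WT over BBA log2 -0.23 (adjusted p = 0.050), both under the fold limit. Pim3 was at 40.2 and 38.5 CPM in AAB and 29.3, 33.0 and 31.2 CPM in BBA (log2 0.34, adjusted p = 0.11). The Pim1 call was kept whichever library was left out and missed the threshold in a single fit over all CD4+ libraries (adjusted p = 0.078). NK cell markers summed to 0.449 to 1.5 CPM in WT and 22.3 to 28.7 CPM in BBA, and B cell markers to 6.08 to 9.88 and 12.8 to 56.1 CPM. Their part in the Pim1 difference was not tested.

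CD8+ Tnv with IL-7 also held the lowest Pim2 in WT. The levels were 234 and 275 CPM in WT, 486 and 372 CPM in AAB and 403 and 305 CPM in BBA, with WT below both mutants in every library, and neither difference passed the test (log2 -0.75, SE 0.20, adjusted p = 0.28 for WT over AAB and log2 -0.46, adjusted p = 0.29 for WT over BBA). WT over AAB was called lower by DESeq2 (log2 -0.75, adjusted p = 0.018) and with no filter on low counts (-0.73, adjusted p = 7.2e-05). NK cell markers, summed over 4 genes (Ncr1, Klrb1c, Klra8 and Eomes), stood at 20.5 and 37.4 CPM in WT, 197 and 79.98 CPM in AAB and 271 and 164 CPM in BBA. Their part in the Pim2 levels was not tested. Sorted CD8+ Tcm with IL-15 held this sum at 254 to 283 CPM, so it does not tell NK cells from memory T cells. Pim1 was at 330.4 and 356 CPM in WT, 423 and 365 CPM in AAB and 260.3 and 257 CPM in BBA (log2 0.43, adjusted p = 0.12 for WT over BBA and log2 0.62, adjusted p = 0.19 for AAB over BBA). For Pim1, AAB over BBA was called by DESeq2 (log2 0.63, adjusted p = 0.00087) and with no filter (0.63, adjusted p = 0.0019). In Tcm with IL-7, WT replicate 1 was below and replicate 2 above the 4 mutant libraries for Pim1, and no PIM gene was called. Pim3 there was at 45.4 and 39.4 CPM in WT, 44.6 and 32.7 CPM in AAB and 30.8 and 23.6 CPM in BBA (log2 0.57 for WT over BBA, adjusted p = 0.18).

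Without cytokine, no PIM gene was called between genotypes in the fits without a block. In Tem Pim1 was at 86.8 and 131 CPM in WT, 46.2 and 59.7 CPM in AAB and 56.0 and 70.9 CPM in BBA, with WT above both mutants in every library. The differences were log2 1.03 (adjusted p = 0.25) for WT over AAB and 0.76 (adjusted p = 0.29) for WT over BBA. With the replicate number as a block they were 1.01 (adjusted p = 0.011, 0.833% of genes called higher) and 0.74 (adjusted p = 0.014, 1.18% called higher), and both were called. In Tcm, WT stood at 70.9 and 115 CPM, AAB at 44.8 and 71.4 CPM and BBA at 47.2 and 73.2 CPM. There the differences were log2 0.66 (adjusted p = 1.0) and 0.61 (adjusted p = 0.62), and with the block 0.65 (adjusted p = 0.011, 0.214% of genes called higher) and 0.59 (adjusted p = 0.0064, 1.62% called higher). Replicate 2 was above replicate 1 in each of these 6 groups, and so was Fos. In Tnv, WT was at 85.5 and 137 CPM and BBA at 64.5 and 78.7 CPM (log2 0.63, adjusted p = 0.23). CD4+ Tnv without cytokine held Pim2 at 57.5 to 64.6 CPM in WT and 74.5 and 93.7 CPM in BBA (log2 -0.44, adjusted p = 0.33), with AAB at 54.3 and 72.0 CPM.

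**Figure D4:**
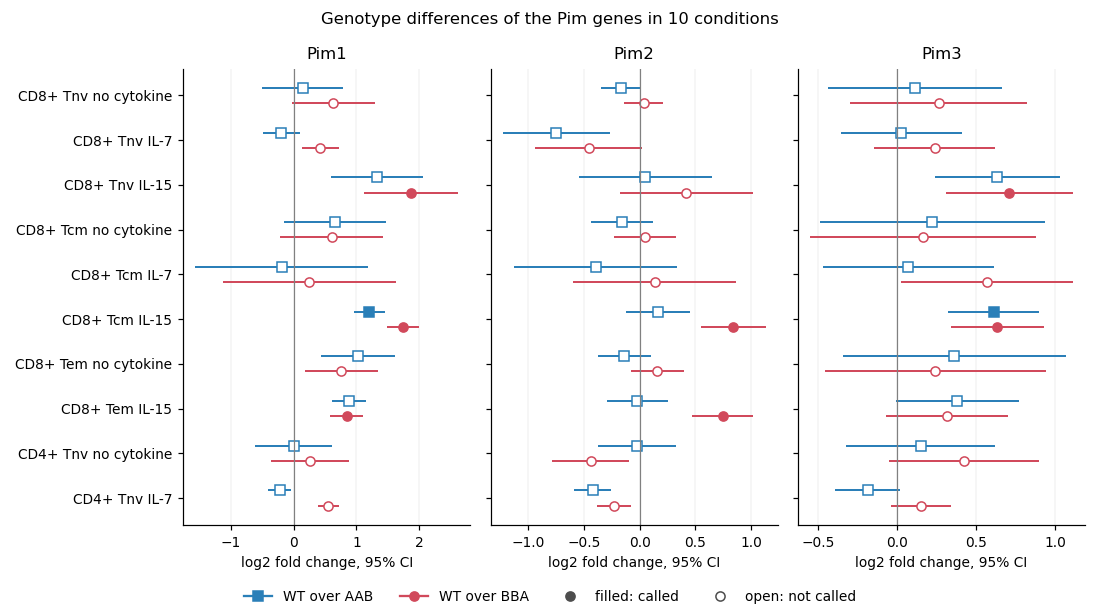
Log2 fold change of WT over AAB (squares) and WT over BBA (circles) with 95% confidence intervals (x axis) in 10 conditions (y axis), one panel per gene, with filled points for calls. The points show the fits without a block. There WT over BBA of Pim1 lies above 0 in 10 of 10 conditions and is called in 3, all with IL-15. With the replicate number as a block it was called without cytokine too, in CD8+ Tnv, Tcm and Tem.

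Over the 10 conditions, in the fits without a block, WT over BBA gave 7 calls in 30 comparisons of the PIM genes. All were higher in WT: Pim1 in 3, Pim2 in 2 and Pim3 in 2. Over all genes and the same conditions, 2.35% of comparisons were called higher. WT over AAB gave 2 calls, 1 of Pim1 and 1 of Pim3, with 0.395% over all genes, and AAB over BBA 2 calls, 1 of Pim1 and 1 of Pim2, with 0.445%. In these fits no PIM gene was called lower in WT than in a mutant, or lower in AAB than in BBA. DESeq2 and the fit with no filter on low counts called Pim2 lower in WT than in AAB in CD8+ Tnv with IL-7. The block added genotype calls. Among them was Pim1 of WT over BBA without cytokine in CD8+ Tnv (2.37% of genes called higher), Tcm (1.62%) and Tem (1.18%). Pim1 of WT over AAB without cytokine was added in Tcm (0.214%) and Tem (0.833%). The log2 difference of WT over BBA was above 0 in 10 of 10 conditions for Pim1 and Pim3 and in 7 of 10 for Pim2. For WT over AAB it was above 0 in 6 of 10 for Pim1, in 2 of 10 for Pim2 and in 9 of 10 for Pim3.

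Whether a response itself differed between genotypes was tested as an interaction. Of 72 such tests, 24 comparisons of 3 genes, 1 was called: the Pim2 response to IL-15 in Tcm was greater in WT than in BBA by log2 0.77 (SE 0.17, adjusted p = 0.022). In that comparison 7.64% of genes were called in either direction, and over all 24 comparisons 0.662% of all tests were. The levels behind it were 199.8 and 187 CPM without cytokine and 437 and 529 CPM with IL-15 in WT, and 177 and 187 CPM and 248 and 281 CPM in BBA. The call was lost without WT IL-15 replicate 2 (log2 0.63, adjusted p = 0.073), BBA no-cytokine replicate 2 (adjusted p = 0.058), or either BBA IL-15 library (0.050 and 0.087). Pim1 had the larger difference in the same cells, log2 1.12 (SE 0.39), at adjusted p = 0.12, and was called with the replicate number as a block (log2 1.13, adjusted p = 0.0074, 14.2% of genes called in either direction). Pim2 in Tem gave log2 0.60 (adjusted p = 0.17), called with the block (adjusted p = 0.039, 0.715% of genes). For Pim1 in Tnv, the IL-15 response differed by log2 1.17 between WT and AAB (adjusted p = 0.47) and by 1.22 between WT and BBA (adjusted p = 0.20), and both were called with no filter (0.016 and 0.0013). The Pim1 gap between IL-15 and IL-7, called in the mutants and with overlapping libraries in WT, differed by 1.53 (adjusted p = 0.23) and 1.46 (adjusted p = 0.10) in Tnv and by 1.38 (adjusted p = 0.65) and 1.49 (adjusted p = 0.62) in Tcm, and none of these 4 passed the test. They depended on the method and on single libraries. In Tnv both were called by DESeq2 (adjusted p = 0.0057 and 0.0044) and with no filter on low counts (0.00022 and 0.00013). Leaving out 1 library at a time, the Tnv differences ran from log2 0.93 to 1.94 for AAB and from 0.86 to 1.87 for BBA. The Tcm differences ran from 0.68 to 2.82 for AAB and from 0.79 to 2.93 for BBA.

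Pim2 gave the single call of a PIM gene between cell states. Its levels in Tcm were above Tnv in 9 of 9 comparisons of the same genotype and culture. With IL-15, WT Tcm held Pim2 at 437 and 529 CPM, Tnv at 305 and 287 CPM and Tem at 305 and 297 CPM, and Tcm exceeded Tnv by log2 0.69 (SE 0.12, adjusted p = 0.022). The 21 comparisons of states each tested every PIM gene. Over them, 3.68% of all tests were called in either direction, a greater share than among the PIM tests. In WT Tcm over Tnv with IL-15, 5.08% of genes were called higher, and Pim2 there was the 1 PIM call. It was lost without any 1 of its 4 libraries (adjusted p 0.053 to 0.095). AAB gave log2 0.58 with IL-15 (adjusted p = 0.11), called with the block (log2 0.61, adjusted p = 0.018, 7.17% of genes called higher). The differences without cytokine were 0.33 (adjusted p = 0.16) in WT, 0.31 (adjusted p = 0.11) in AAB and 0.30 (adjusted p = 0.27) in BBA. With IL-7, WT Tcm were above Tnv by 0.98 (adjusted p = 0.14), and by 1.41 without WT Tcm replicate 1, which leaves 1 Tcm library. Tem lay below Tcm in 6 of 6 comparisons of Pim2, by log2 -0.65 in WT with IL-15 (adjusted p = 0.052).

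Pim1 was not called between states, but a fit with the block called it in AAB cells without cytokine. AAB Tnv held Pim1 at 78.1 and 123 CPM, Tcm at 44.8 and 71.4 CPM and Tem at 46.2 and 59.7 CPM. Tcm were below Tnv by log2 -0.80 (adjusted p = 0.20; with the block -0.80, adjusted p = 0.00033, 2.22% of genes called lower). Tem were below Tnv by log2 -0.91 (adjusted p = 0.11; with the block -0.87, adjusted p = 0.00018, 2.47% called lower). With no filter on low counts both were called as well (-0.86, adjusted p = 3.0e-06 and -1.1, adjusted p = 4.4e-10), and DESeq2 called the second (-0.92, adjusted p = 0.014). In BBA with IL-15, DESeq2 also called Pim1 higher in Tem than in Tcm (0.76, adjusted p = 0.0021).

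The retrovirus libraries asked what an active STAT5A does in AAB cells, and they went against their label. Cd8a stood at 1.4 to 3.18 CPM, Cd8b1 at 0.305 to 1.57 CPM and Cd3e at 2.8 to 14.9 CPM, while the NK cell genes Ncr1 and Eomes stood at 1129 to 1460 and 726 to 819 CPM, and they are called retrovirus-transduced lymphocytes here. Stat5a was at 59.97 and 61.0 CPM with CA-STAT5A against 8.45 and 3.22 CPM with the empty vector. Pim2 fell with CA-STAT5A, to 98.5 and 132 CPM from 271 and 463 CPM, with no overlap between the vectors (log2 -1.67, SE 0.27, adjusted p = 0.017, 4.42% of genes called lower). Pim1 was at 361 and 288 CPM with CA-STAT5A and 197 and 257 CPM with the empty vector, also without overlap (log2 0.51, SE 0.18, adjusted p = 0.16). Pim3 was at 48.1 and 32.8 CPM and at 33.1 and 38.8 CPM, and the vectors overlapped. Pim1 thus made up 62.3% ± 5.40 of the PIM sum with CA-STAT5A and 32.1% ± 3.59 with the empty vector (n = 2 each). The Pim2 call was lost without CA-STAT5A replicate 1 (log2 -1.47, adjusted p = 0.074). With both vectors, replicate 1 was male and replicate 2 female, and with a sex term Pim2 stayed called (log2 -1.64, adjusted p = 6.9e-05) and Pim1 was not (0.52, adjusted p = 0.19). B cell markers summed to 89.9 and 146 CPM with the empty vector and 9.38 and 26.0 CPM with CA-STAT5A, myeloid markers to 661 and 784 against 1422 and 1601 CPM, and their part in the Pim2 difference was not tested.

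**Figure D5:**
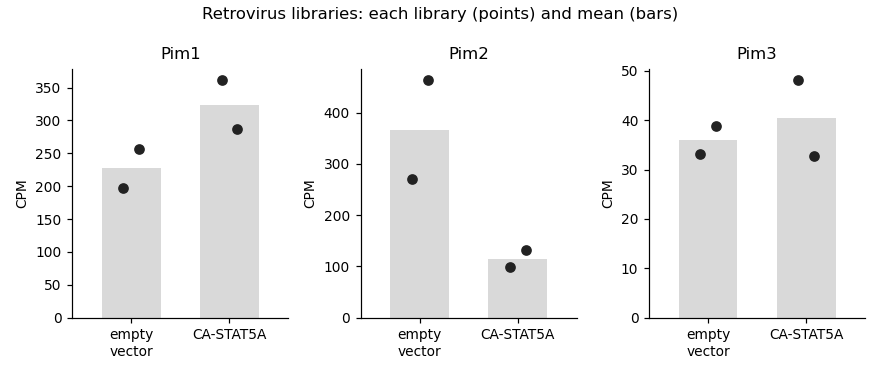
Pim1, Pim2 and Pim3 levels in CPM (y axes from 0) in the retrovirus-transduced AAB lymphocytes, with points for each library and bars for the mean of 2 libraries per vector. Pim2 is at 98.5 and 132 CPM with CA-STAT5A and at 271 and 463 CPM with the empty vector.

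The genes around the PIM kinases were read from 52 genes in 7 lists, of which 49 were tested in Tcm with IL-15. WT over BBA called 17 of them higher and 6 lower (median log2 0.21), against 12.3% higher, 11.1% lower and a median of -0.0031 over all genes tested. Among 9 STAT5 feedback and target genes, 7 were called higher and none lower (median log2 1.82). Cish, which encodes a feedback inhibitor of cytokine receptors, was at 61.9 and 50.6 CPM in WT, 25.8 and 24.7 CPM in AAB and 6.17 and 4.16 CPM in BBA (log2 3.43 for WT over BBA). Socs2, another SOCS-family inhibitor, differed by 2.44 and the cytokine gene Osm by 2.43. The survival gene Bcl2 was at 1091 and 979.6 CPM in WT, 659.6 and 638 CPM in AAB and 307 and 268 CPM in BBA, and Myc, whose protein PIM kinases stabilize, at 384 and 441, 141 and 171, and 69.7 and 86.4 CPM. Cish, Bcl2 and Myc stood in the order WT, AAB, BBA, as Pim1 did.

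Of 12 receptors, JAKs and STATs upstream of PIM, 4 were called higher in WT than in BBA Tcm with IL-15 and 3 lower. The higher ones were Stat5b (log2 1.42), Il2rb, which encodes the signalling chain of the IL-15 receptor (1.29), Stat5a (0.96) and Il2ra (0.95). The lower ones were Il7r, the IL-7 receptor chain (log2 -1.31), and the kinase genes Jak2 (-0.61) and Jak1 (-0.59). Among 4 substrates in translation only Eif4ebp1, which encodes the translation repressor 4E-BP1, was called (log2 0.72), and among 6 tested substrates in survival and cell cycle only Cdc25a, a phosphatase that drives the cell cycle (0.99). The chaperone genes Hsp90aa1 and Hsp90ab1, whose products hold PIM proteins stable, were higher in WT by 1.15 and 1.27, and Cxcr4, the gene of a chemokine receptor that PIM1 phosphorylates, was lower (log2 -1.40). Among 7 AGC kinases that act in parallel, Sgk1 alone was called (0.73). Among 6 transcription and chromatin partners, the transcription factors Myb (log2 -2.65) and Runx1 (-0.79) were lower in WT and the coactivator Snd1 higher (0.87). Of these genes, Il2rb, Il2ra, Jak1, Jak2, Eif4ebp1, Cdc25a, Hsp90aa1, Hsp90ab1, Sgk1, Runx1 and Snd1 were chosen after their values were seen. WT over AAB called 8 of the 49 higher and 1, Myb, lower (log2 -1.11), led by Stat5a itself (log2 5.01), Socs2 (2.26) and Il2ra, the IL-2 receptor alpha chain (1.86), with 2.8% and 1.65% over all genes.

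The calls of 4 other STAT5 targets over the 10 conditions stand here beside those of Pim1, all from fits without a block. The difference in number was not tested. WT exceeded BBA in 8 of 10 conditions for Cish, in 8 for Bcl2, in 5 for Myc and in 2 for Socs2, beside 3 for Pim1. For WT over AAB the numbers were 2, 1, 2 and 1, beside 1 for Pim1. The deleted genes followed the genotypes: Stat5a was called higher in WT than in AAB in 10 of 10 conditions and Stat5b higher in WT than in BBA in 10 of 10. In Tcm with IL-15 the levels of Stat5a were 90.2 and 81.6 CPM in WT, 2.64 and 2.61 CPM in AAB and 42.2 and 44.2 CPM in BBA. Stat5b stood at 209 and 174, 96.7 and 93.6, and 65.9 and 74.7 CPM.

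The lists moved with IL-7 as well. In CD4+ WT Tnv, 15 of 51 tested genes were called higher and 9 lower, against 9.32% and 7.44% over all genes. The cell cycle inhibitor Cdkn1a led at log2 4.79, then Socs2 at 4.23 and Il2ra at 2.86, while Sgk1 (log2 -2.17), Cxcr4 (-1.85) and Hsp90aa1 (-1.83) led those called lower. In CD8+ WT Tnv with IL-7, 9 of 50 were called higher, led by Socs2 (2.66), Cish (2.34) and Bcl2 (2.02), and 11 lower, among them Sgk1 (-2.30) and Cxcr4 (-1.68). With CA-STAT5A, 4 of 51 were called higher, Stat5a (log2 3.36), Cdkn1a (1.86), Bcl2 (1.26) and Stat5b (1.05), and 4 lower, Il7r (log2 -2.69), Il2ra (-1.61), Socs3 (-1.09) and Myc (-0.76). Over all genes, 2.21% were called higher and 4.42% lower.

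Over the 24 group means of the CD8+ table, the genes whose log2 level ran most like each PIM gene were picked by Pearson's r among 9946 genes with a mean of at least 5 CPM. For Pim1 these were Sox12 (r = 0.954), Crebl2 (0.939), Mettl20 (0.935), 2810474O19Rik (0.922) and Sec24a (0.922). For Pim2 they were Mtch2 (0.908), Med20 (0.907), Gab3 (0.906), Vps26a (0.905) and Eif4h (0.887). For Pim3 they were Lppr3 (0.932), Ddx23 (0.931), Atf4 (0.921), Cdc73 (0.911) and Puf60 (0.909). Pim1 and Pim2 had r = 0.766 with each other, which placed Pim2 at rank 170 for Pim1. Pim3 ran against both, at r = -0.33 with Pim1 and -0.429 with Pim2. The points share cultures and genotypes, and the r values describe them only.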

How the data were processed

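Poly(A) RNA-seq of CD8+ T cells, CD4+ T cells and retrovirus-transduced cells was analysed from gene count tables that the authors deposited. The submitters' notes name TopHat2, HTSeq, Cufflinks and the build mm9, and the methods of the study name mm10. Strand use in counting is not given in the sources used here. Gene models came from GRCm38, GENCODE M21. The deposited counts were used unnormalized. In the retrovirus table, 5 summary entries that name no gene, 67% to 68.4% of a library, were left out. The columns of 2 CD4+ libraries, whose labels disagree on the cytokine given, entered no comparison.

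Counts were fitted with edgeR 4.0.16 in R 4.3.3 (TMM, quasi-likelihood F test, Benjamini-Hochberg over all genes tested), 1 fit per comparison family and condition, 40 in all. Genes were filtered by the Jaccard method of the HTSFilter approach, at 40.2 to 130 normalized counts, which left 9412 to 10768 genes. A call needed over 1.5-fold and an adjusted p under 0.05. The fits were tested on simulated data. Levels are CPM with TMM factors over a whole table, and CPM per kb divides by merged exon length. Confidence intervals are 95%.

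The genes named were the 3 members, Stat5a and Stat5b, the comparators Cish, Socs2, Bcl2 and Myc, in each comparison the up to 3 higher and 3 lower pathway genes of greatest fold among calls whose groups did not overlap, and the 5 genes most like each member. The members and lists were chosen with earlier results of these data known. Replicate numbers were treated as pairing in fits with 3 or more pairs of groups where the same-numbered libraries of every pair deviated together (correlation over 0.1, and 0.11 to 0.788 in the 12 fits where this held). The main values of these fits too are without a block, and the value with a replicate block is added where it changed a call. Alternatives were DESeq2 1.42.0, its size factors, the edgeR 4 quasi-likelihood method, other filters, 1 fit over a table, a sex term, other limits and leaving out libraries. The counting precision depends on depth: the lowest PIM count was 162.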

Additional observations from a re-analysis of the deposited data

Results flagged for a closer look

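The Pim2 response to IL-15 in CD8+ Tcm was the only interaction of a PIM gene called in the fits without a block. It was greater in WT than in BBA by log2 0.77 (SE 0.17, adjusted p = 0.022, edgeR), where 7.64% of genes were called in either direction. The call was lost without WT IL-15 replicate 2 (log2 0.63), BBA no-cytokine replicate 2 or either BBA IL-15 library. Pim1 had the larger difference in the same cells, not called without a block and called with it (log2 1.13, adjusted p = 0.0074).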

How the results depend on the processing

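Of 50 called PIM values, none changed direction under any of the alternatives run, and 8 kept their call under all of them. DESeq2, its size factors in edgeR and the edgeR 4 quasi-likelihood method kept all 50, the filterByExpr filter lost 4, no filter 3, 1 fit over the whole table lost 15, a limit of 2-fold 22 and Bonferroni adjustment 40. Of the calls of WT over BBA (7), 1 fit gave 4, the 2-fold limit 2 and Bonferroni 1. For WT over AAB (2), no filter and DESeq2 gave 6 each in either direction, 1 fit 0, and the 2-fold limit and Bonferroni 1 each. Among those 6, each called Pim2 lower in WT in CD8+ Tnv with IL-7 (log2 -0.73 with no filter, -0.75 with DESeq2). For AAB over BBA (2), no filter and DESeq2 gave 4 each, 1 fit and the 2-fold limit 0, and Bonferroni 1. IL-7 calls (16) fell to 7 with Bonferroni, and IL-15 calls (12) to 6 with the 2-fold limit and 0 with Bonferroni. Pim3 calls (3) were 7 with no filter, 8 with DESeq2, 5 with 1 fit and 0 with the 2-fold limit or Bonferroni. Calls of IL-15 below IL-7 (5) were 3 with the 2-fold limit, 0 with Bonferroni and 2 with a sex term, which outside the genotype fits was chosen after seeing the data. The sex term also lost Pim1 in BBA Tcm, IL-15 over no cytokine (adjusted p = 0.077). Interaction calls (1) were 8 with no filter, 5 with DESeq2 and 0 with 1 fit, the 2-fold limit or Bonferroni. State calls (1) were 7 with no filter, 6 with DESeq2, 2 with the edgeR 4 method, 3 with 1 fit and 0 with the 2-fold limit or Bonferroni. The retrovirus call (1) was 0 with Bonferroni. Leaving out each library in turn gave 5 to 8 calls for WT over BBA, 1 to 4 for WT over AAB, 1 to 3 for AAB over BBA, 15 to 18 for IL-7, 10 to 14 for IL-15, 2 to 5 for Pim3, 3 to 6 for IL-15 below IL-7, 0 to 7 for interactions, 0 to 2 for states and 0 to 1 for the retrovirus. Leaving out both WT Tnv IL-15 replicate 2 and WT Tcm IL-7 replicate 1, an alternative chosen after seeing the data, gave 2 state calls and lost Pim3 in Tnv with IL-15, WT over BBA (adjusted p = 0.15) and Pim2 in WT with IL-15, Tcm over Tnv (adjusted p = 0.078). Without division by exon length the Pim3 share in WT Tnv was 18.7%, the Pim2 share in WT Tcm with IL-15 55.6% and the Pim1 share in CD4+ WT Tnv with IL-7 68.9%. Over the 48 libraries in place of group means, 2 of the 5 genes most like Pim2 and 3 of the 5 most like Pim3 were the same. The cause was not tested for any of these.

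With the replicate number as a block, WT over AAB gave 7 calls, interactions 4 and states 5. Beside the values given with their results, in fits whose numbers did not pair the libraries the block added Pim1 in Tnv without cytokine, WT over BBA (log2 0.61, adjusted p = 0.011), Pim1 (1.26, adjusted p = 0.038) and Pim3 (0.64, adjusted p = 0.041) in Tnv with IL-15, WT over AAB, the Pim1 interaction of IL-15 in Tnv, WT over BBA (1.20, adjusted p = 0.033), and Pim2 in WT with IL-15, Tem over Tcm (-0.65, adjusted p = 0.032). It lost Pim1 in AAB Tnv, IL-15 over no cytokine (adjusted p = 0.070) and over IL-7 (adjusted p = 0.057), and in BBA Tcm, IL-15 over no cytokine (adjusted p = 0.056). The block changed no other call named in the text. For the retrovirus comparison the label of 1 empty-vector library gives no number, and the fit with a sex term, which sets the male and the female library of each vector side by side, stands in place of a block. The CD4+ AAB response could not be fitted with a block, which leaves no residual degrees of freedom.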

Other observations

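In 2 CD4+ libraries whose labels disagree on whether the cells had IL-7 or no cytokine, and which were put in no group, Pim1 was at 116 and 97.6 CPM, Pim2 at 68.5 and 82.0 CPM and Pim3 at 46.3 and 36.7 CPM, and Fos at 329 and 284 CPM. These values belong to no comparison.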
